A study of Saccharomyces cerevisiae with 164 samples.

Results

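The genes described here encode the yeast histones other than H3 and H4, namely both copies of H2A (HTA1, YDR225W, and HTA2, YBL003C), both copies of H2B (HTB1, YDR224C, and HTB2, YBL002W), the H2A variant H2A.Z (HTZ1, YOL012C), the linker histone H1 (HHO1, YPL127C) and the centromeric H3 variant Cse4 (CSE4, YKL049C). They were chosen by systematic name and are 7 of the 5013 features counted in 3′-end RNA-seq libraries and 7 of the 6692 features counted in full-length RNA-seq libraries. RNA was measured in budding yeast (Saccharomyces cerevisiae) whose H3 was changed at single residues on one or both H3 copies of a nucleosome. The full-length mutant delta4-20 instead has a deletion of H3 residues 4 to 20, on one copy only. All 7 genes are chromosomal and were not themselves altered. Their mRNA levels are compared here between strains that differ in H3, and the cause of a difference was not tested.

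In budding yeast each H2A gene lies head to head with an H2B gene and shares its upstream region with it. These histone genes are switched on as cells enter S phase by the activator Spt10, which binds upstream activating sequences (UAS) in the shared region, and by the cell cycle factors SBF and MBF, which act through Swi4 and Mbp1. The HIR complex represses the HTA1-HTB1 pair outside S phase, and HTA2-HTB2 is not under that control. Htz1 is placed in nucleosomes beside promoters by the SWR1 complex, Hho1 binds linker DNA, and Cse4 takes the place of H3 in the centromeric nucleosome, for which it is escorted by the chaperone Scm3.

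Sequence from the shared regions is shown because both genes of a pair read it from opposite sides. The strand given is the plus strand of build R64, and capitals mark matches to 3 motifs searched on both strands, the Spt10 motif (TTCC, then 6 bases of any kind, then TTCNC), the SBF motif CGCGAAA and the MBF motif ACGCGT.
HTA1-HTB1, chrIV:914957-915161: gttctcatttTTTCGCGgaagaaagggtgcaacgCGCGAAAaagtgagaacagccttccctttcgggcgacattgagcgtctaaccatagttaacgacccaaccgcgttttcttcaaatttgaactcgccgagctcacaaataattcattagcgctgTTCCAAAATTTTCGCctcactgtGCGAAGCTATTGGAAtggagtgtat
HTA2-HTB2, chrII:236098-236144: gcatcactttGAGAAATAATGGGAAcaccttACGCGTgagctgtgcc
The HTA1-HTB1 region of 817 bp between the coding sequences (chromosome IV, 914713 to 915529) held 4 matches, and the HTA2-HTB2 region of 699 bp (chromosome II, 235793 to 236491) held 2. In the 500 bases upstream of the coding sequence, HTA1 and HTB1 shared 2 Spt10 matches, HTA2 and HTB2 shared 1, and HTZ1, HHO1 and CSE4 had none in that window. Such a match was found upstream of 174 of 6000 genes (2.90%). CGCGAAA was found upstream of 5.82% of genes, including HTB1, HHO1 and CSE4, and ACGCGT upstream of 5.42%, including HTA2 and HTB2. A match is a description of these letters and was not tested for binding.

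The copies are similar enough for short reads to be ambiguous. HTA1 and HTA2 differ at 25 of 399 coding bases with a longest shared run of 65 bases, and HTB1 and HTB2 differ at 48 of 396 with a longest shared run of 35. The last 60 coding bases, nearest to the 3′ ends that one assay reads, are printed on the coding strand with the bases that differ between the copies in capitals, 6 in each pair.
HTA1, chrIV:915869-915928 (+): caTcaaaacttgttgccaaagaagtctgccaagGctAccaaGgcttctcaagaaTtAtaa
HTA2, chrII:235394-235453 (-): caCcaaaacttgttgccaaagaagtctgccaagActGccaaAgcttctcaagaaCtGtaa
HTB1, chrIV:914317-914376 (-): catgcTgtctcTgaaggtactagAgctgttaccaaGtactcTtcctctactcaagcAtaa
HTB2, chrII:236828-236887 (+): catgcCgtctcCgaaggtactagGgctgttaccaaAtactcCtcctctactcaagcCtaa
Both assays counted only reads with a mapping quality of at least 30, which removes reads that match both copies equally well, so the level of one copy against the other carries that uncertainty. The other coding sequences are HTA1 at chromosome IV 915530 to 915928 (plus strand), HTB1 at IV 914317 to 914712 (minus), HTA2 at II 235394 to 235792 (minus), HTB2 at II 236492 to 236887 (plus), HTZ1 at XV 303579 to 303983 (minus), HHO1 at XVI 308828 to 309604 (minus) and CSE4 at XI 346075 to 346764 (minus).

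All strains are MATa with leu2, ura3 and trp1 marker mutations and his3+, and lack both chromosomal H3-H4 gene pairs, written delta(hht-hhf1) and delta(hht2-hhf2) in the labels. They live on a TRP1 and a LEU2 centromeric plasmid with H3 variants that pair with each other, H3X (L127A, L131V) and H3Y (L110I, A111W, L131I), and were grown in YEPD, a rich glucose medium, to mid-log phase. A substitution carried by H3X alone or by H3Y alone gives an asymmetric strain, the same substitution on both (double in the labels) gives a symmetric strain, and the pseudo-wild-type carries the pairing changes and no further one. The 3′-end libraries are 66 in 20 groups, with 3 libraries for each of H3X, H3Y and symmetric R2K, K36Q and K37Q in batch 10 and K14R, K18R and K56R in batch 11, and 6 of the pseudo-wild-type in each batch. The 98 full-length libraries of batches 1 to 9 form 56 groups of 1 or 2 libraries, with 5 of the pseudo-wild-type, and cover 21 mutants, 13 of them also in the symmetric form. These 13 are R2K, K9R, K9Q, S10A, K14R, K14Q, K18R, K18Q, K27R, K27Q, K36Q, K37Q and K56R. Changed on one copy only are K4R, K4Q, K4A, K36R, T45A, K56Q, K79A and the deletion delta4-20. The pseudo-wild-type differs from ordinary yeast in its plasmid-borne, paired H3, and every control shares that. Nothing in the labels says that replicates are separate cultures, so p-values measure the spread between these libraries, which may be technical.

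The 3′-end libraries held 750551 to 5156160 counts each, and the full-length libraries 542727 to 21573351. Of the markers of the labelled MATa mating type, the a-cell genes MFA2, STE2, STE6 and BAR1 had medians of 138 to 393 CPM in the 3′-end batches and MFA1 31.7 and 28.3. Of the alpha-cell genes, MF(ALPHA)1 (1.20 and 1.86) and MF(ALPHA)2 (0.707 and 0.378) were near 0, while STE3 (51.2 and 35.1) and SAG1 (57.5 and 60.9) were above MFA1. Several libraries stood apart. In K37Q, H3X replicate 4 was closest over all genes to symmetric replicates 5 and 3 (r = 0.991 each), above its best match in its own group (0.970), and symmetric replicate 4 was closest to H3X replicate 5 (0.989) and H3Y replicate 3 (0.984), above its own group (0.972). The best match of K37Q H3X replicate 3 was 0.974 and that of K18R symmetric replicate 5 was 0.949. Symmetric replicate 2 of full-length K14R also stood apart. The full-length pseudo-wild-type replicates 1 to 3 differed from each other by little more than sampling noise (chi-square per degree of freedom of 1.15 to 2.76, against 8.73 to 301 for other full-length pairs). They were counted as 1 sample in every mean ± SD. The full-length tests were fitted on all 98 libraries and kept these 3 as separate controls. Full-length p-values therefore treat near copies as independent, and a fit without replicates 2 and 3 was an alternative. Among 3′-end pairs the chi-square range was 1.59 to 73.6. The closest pair, symmetric K56R replicates 3 and 4, was kept as separate libraries, with a fit on their sum as an alternative. Labels were kept as given.

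Libraries also differed in how expression followed gene length. The change in log2 CPM per doubling of coding length, relative to the batch mean, ran from -0.35 (K18R symmetric replicate 5) to 0.16 among the 3′-end libraries. Across those 66 libraries the level of HTA1 had a correlation of -0.93 with this slope, HTA2 -0.85, HHO1 -0.55, HTB2 -0.48, HTZ1 -0.19, HTB1 0.03 and CSE4 0.46. These libraries share batches and strains, and the correlations are a description. The slope moves with several results below, and its values are given beside them.

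Per length, the 4 main H2A and H2B genes stood well above the others. In CPM per kilobase of the full-length libraries, the medians over 98 libraries were 1243 for HTB1, 1110 for HTA1, 874 for HTB2, 362 for HTA2, 139 for HHO1, 113 for HTZ1 and 60.2 for CSE4. In the pseudo-wild-type the levels were 852 ± 113 for HTB1, 829 ± 84.8 for HTA1, 595 ± 132 for HTB2, 289 ± 64 for HTA2, 141 ± 36.4 for HHO1, 93.2 ± 4.14 for HTZ1 and 74.2 ± 20.6 for CSE4 (SD, n = 3). HTB1 was above HTA1 in 47 of 98 libraries, so this pair had no fixed order. Each other neighbouring pair kept its order in most libraries, with HTA1 above HTB2 in 89, HTB2 above HTA2 in 95, HTA2 above HHO1 in 96, HHO1 above HTZ1 in 85 and HTZ1 above CSE4 in 94. HTB2 was above HTA2 in each of the 5 pseudo-wild-type libraries, although the genes share an upstream region. In the 3′-end libraries the order was the reverse. There the pseudo-wild-type means were 1018 CPM for HTA2 and 263 for HTB2 in batch 10, and 678 and 273 in batch 11. The reason for this was not tested.

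**Figure D1:**
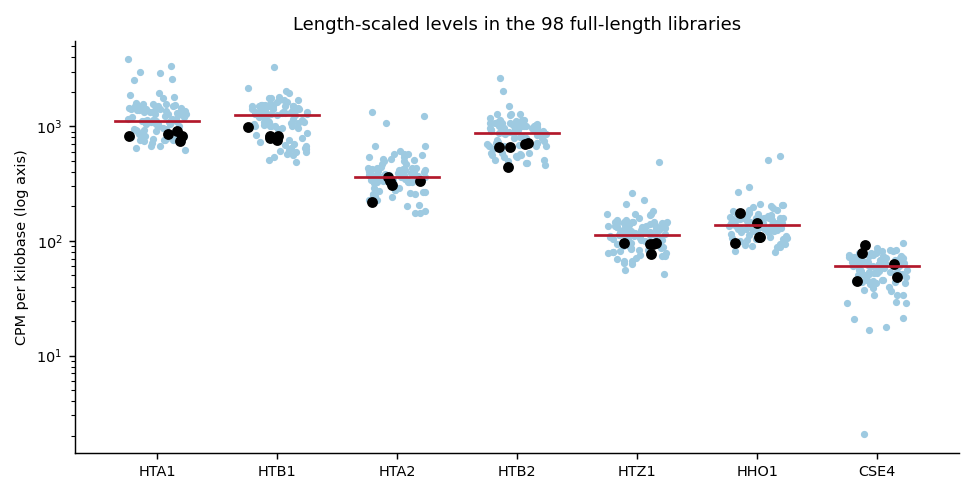
Level of each of the 7 genes in CPM per kilobase of coding sequence on a log axis, 1 point per full-length library (98 libraries), with the 5 pseudo-wild-type libraries in black and the median as a red line. HTB1, HTA1 and HTB2 lie highest, with medians of 1243, 1110 and 874, and CSE4 lowest at 60.2.

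The 3′-end libraries ask whether a substitution on both H3 copies, or on one, changes these mRNAs. CPM of this assay is not divided by length, and the tests compare it within a gene. Of 42 tests of the symmetric strains against the pseudo-wild-type of the same batch (7 genes, 6 mutants), 6 passed the threshold of an adjusted p of 0.05, all lower, in K56R and K14R. The background was 4.51% of all gene tests called lower and 10.4% called in either direction. Of 42 tests of the asymmetric strains, 3 were called higher (background 8.25%) and 2 lower (7.12%), against 15.4% of all gene tests called in either direction. These symmetric and asymmetric comparisons share their control libraries and are not independent of each other. A lower level in bulk RNA may come from fewer cells in S phase or from less RNA per cell, and these cannot be told apart.

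**Figure D2:**
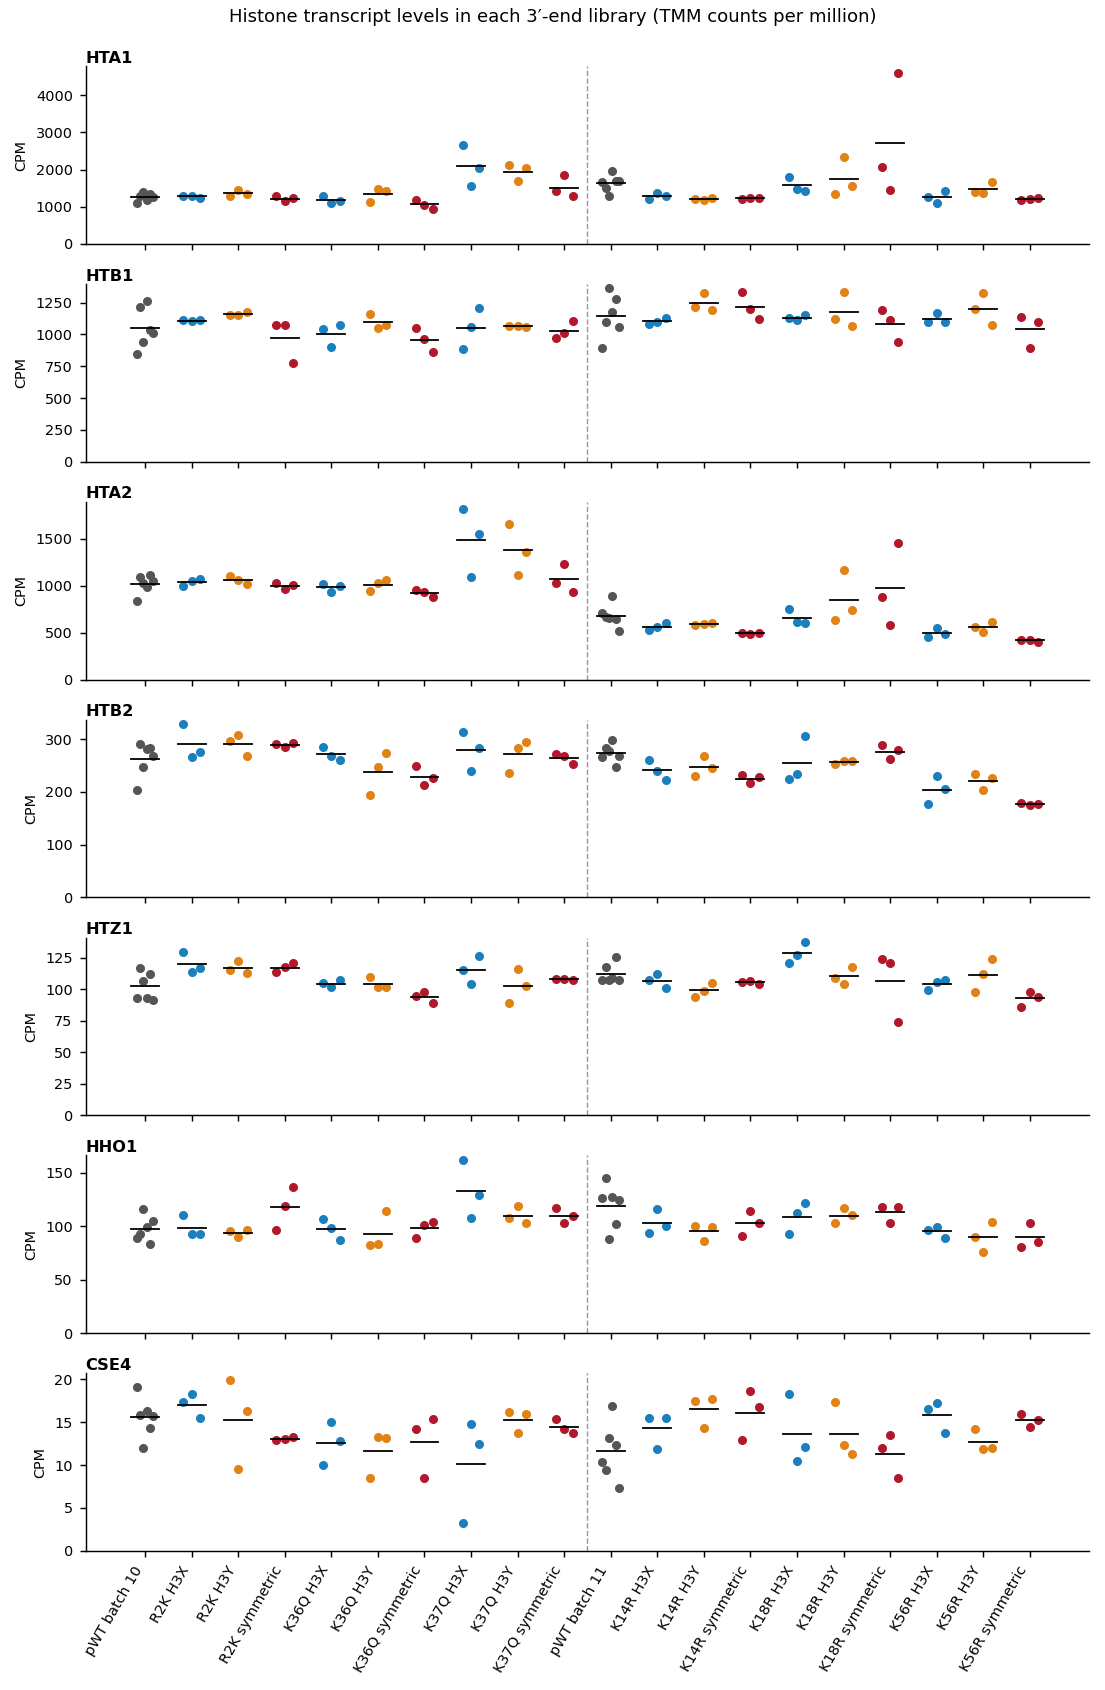
CPM of each of the 7 genes in each 3′-end library, by group, with the mean of a group as a bar and a dashed line between batches 10 and 11 (grey pseudo-wild-type, blue H3X, orange H3Y, red symmetric). In the HTB2 panel the 3 symmetric K56R libraries lie between 176 and 178 CPM, below all 6 pseudo-wild-type libraries of the batch.

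HTB2, the less abundant H2B copy, gave the clearest difference. In the batch 11 pseudo-wild-type it had 246 CPM in the lowest, 273 in the median and 298 in the highest of 6 libraries. In symmetric K56R it had 178, 176 and 178 CPM, and all 3 lay below the whole pseudo-wild-type range. Lysine 56 of H3 is acetylated on newly made histones, and arginine at that place keeps the charge and cannot be acetylated. The difference was -0.62 ± 0.09 on the log2 scale (edgeR quasi-likelihood adjusted p = 4.36e-05), in a comparison in which 24.0% of 4961 genes were called. The 20 genes nearest to HTB2 on its chromosome had a median difference of 0.04.

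The asymmetric K56R strains also had low HTB2. H3X libraries had 178, 231 and 205 CPM and H3Y libraries 233, 204 and 226, all below the lowest pseudo-wild-type library. The mean of both forms was lower by -0.36 ± 0.07 on the log2 scale (edgeR adjusted p = 0.00130, background 23.0% called). The symmetric strain was a further -0.26 below the asymmetric mean, which did not pass the threshold (edgeR adjusted p = 0.155, background 2.20% called). Both HTB2 calls in K56R held under each alternative run and with each library left out, and with symmetric replicates 3 and 4 summed the symmetric difference was -0.64 (edgeR adjusted p = 0.000490). The length slope of the symmetric K56R libraries was 0.068 to 0.083 against -0.17 to 0.027 in the pseudo-wild-type.

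In symmetric K14R the HTB2 level was between that of K56R and the controls. Its libraries had 232, 216 and 228 CPM, again below the lowest control. The difference was -0.28 ± 0.09 on the log2 scale (edgeR adjusted p = 0.0188, background 36.3% called), and the neighbours had a median of -0.08. The call was lost without symmetric replicate 4 (edgeR adjusted p = 0.0852) or 5 (0.0546), and with the library slopes in the fit (0.427). The slopes of these 3 libraries were 0.098 to 0.13.

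HTA2, which lies opposite HTB2 and encodes the other H2A, moved the same way. The batch 11 pseudo-wild-type had 512 CPM at the lowest, 661 at the median and 885 at the highest, a wider spread than for HTB2. Symmetric K56R had 423, 424 and 400 CPM, and symmetric K14R had 498, 484 and 491. Neither strain overlapped the controls. The K56R difference was -0.71 ± 0.19 on the log2 scale (edgeR adjusted p = 0.00785), and it held under each alternative and each left-out library, with -0.74 (0.0240) when replicates 3 and 4 were summed. The K14R difference was -0.47 ± 0.18 (edgeR adjusted p = 0.0460), was lost when any of 9 single libraries was left out, and had an adjusted p of 0.223 with the slopes in the fit. In asymmetric K56R the HTA2 level was 528 ± 60.3 CPM (SD, n = 6), -0.37 ± 0.15 from the controls (edgeR adjusted p = 0.0675), and this was called with the slopes in the fit (-0.30, adjusted p = 0.00601).

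HTA1, the more abundant H2A copy, was called in asymmetric K37Q. The batch 10 pseudo-wild-type had 1112, 1276 and 1383 CPM as lowest, median and highest. K37Q H3X had 2653, 1562 and 2055 CPM and H3Y had 2120, 1684 and 2039. All 6 asymmetric libraries lay above all 6 controls. The difference was 0.67 ± 0.10 on the log2 scale (edgeR adjusted p = 3.18e-05), in a comparison in which 40.0% of genes were called, and the neighbours had a median of 0.02. HTA2 in the same strains had 1820, 1094 and 1546 CPM in H3X and 1661, 1113 and 1362 in H3Y, against 840, 1042 and 1111 in the controls, with an overlap at the low end (0.49 ± 0.10, edgeR adjusted p = 0.000404). The length slopes of these K37Q libraries were -0.30, 0.013 and -0.23 in H3X and -0.16, -0.083 and -0.12 in H3Y, against -0.029 to 0.16 in the controls. With the slopes in the fit the differences were 0.25 for HTA1 (edgeR adjusted p = 0.183) and 0.11 for HTA2 (0.609), so neither call held. Without H3X replicate 3 they were 0.56 (edgeR adjusted p = 0.000180) and 0.40 (0.00233), and without H3X replicate 4 they were 0.76 (4.05e-07) and 0.58 (5.88e-06).

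Symmetric K37Q had 1425, 1848 and 1276 CPM of HTA1, not called against the controls (0.26 ± 0.13, edgeR adjusted p = 0.265, background 0.120% called). The difference between symmetric and asymmetric K37Q was -0.41 for HTA1 (edgeR adjusted p = 0.147) and -0.42 for HTA2 (0.142). With H3X replicate 4 and symmetric replicate 4, the libraries that resembled each other's groups, left out together, it was -0.65 for HTA1 (edgeR adjusted p = 0.000612) and -0.62 for HTA2 (0.000583). This setting was chosen after seeing the data. The library with the lowest HTA1 among the asymmetric ones was H3X replicate 4, and the highest among the symmetric ones was replicate 4.

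In K18R a single library carried the largest HTA1 value of the assay. Symmetric replicates 3, 4 and 5 had 2068, 1451 and 4598 CPM, against 1277, 1675 and 1972 as lowest, median and highest of the controls. The difference was 0.72 ± 0.20 on the log2 scale (edgeR adjusted p = 0.0546, background 1.89% called). HTA2 in the same libraries had 883, 586 and 1454 CPM. Replicate 5 had the fewest reads and the steepest length slope of all 3′-end libraries. Without it and H3Y replicate 4, the library closest to it, the HTA1 difference was 0.11 (edgeR adjusted p = 0.988).

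HTA1 in K14R and K56R depended on which K18R libraries were in the fit. Symmetric K14R and K56R had 1222 ± 26.1 and 1203 ± 24.7 CPM of HTA1 (SD, n = 3), all below the lowest of the 6 controls. The differences of -0.42 and -0.44 on the log2 scale were not called (edgeR adjusted p = 0.112 and 0.114). Without K18R symmetric replicate 5 alone both were called (edgeR adjusted p = 0.0156 for K14R and 0.0153 for K56R). With the same K18R pair of libraries left out they were also called (edgeR adjusted p = 0.00409 for K14R and 0.00370 for K56R). K14R was also called without K18R symmetric replicate 4 alone (0.0477). The cause was not tested.

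HTB1, the more abundant H2B copy, was called in no 3′-end comparison. The batch 11 pseudo-wild-type had 896, 1136 and 1365 CPM and that of batch 10 had 849, 1025 and 1261. Its differences were -0.14 to 0.09 on the log2 scale in symmetric strains (smallest edgeR adjusted p = 0.347) and 0.00 to 0.11 in size in asymmetric ones (smallest 0.804). Its highest library stood 1.63 times above its lowest in batch 10 and 1.53 times in batch 11, against 1.46 and 1.86 times for HTZ1. HTA1, which shares the upstream region of HTB1, spanned 2.82 times in batch 10 and 4.22 times in batch 11. The batch 11 span of HTA1 rests on K18R symmetric replicate 5, since the next highest library had 2351 CPM and the lowest 1089. In the full-length libraries HTB1 spanned 6.76 times, more than HTA1 (6.15) and HTB2 (5.91).

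**Figure D3:**
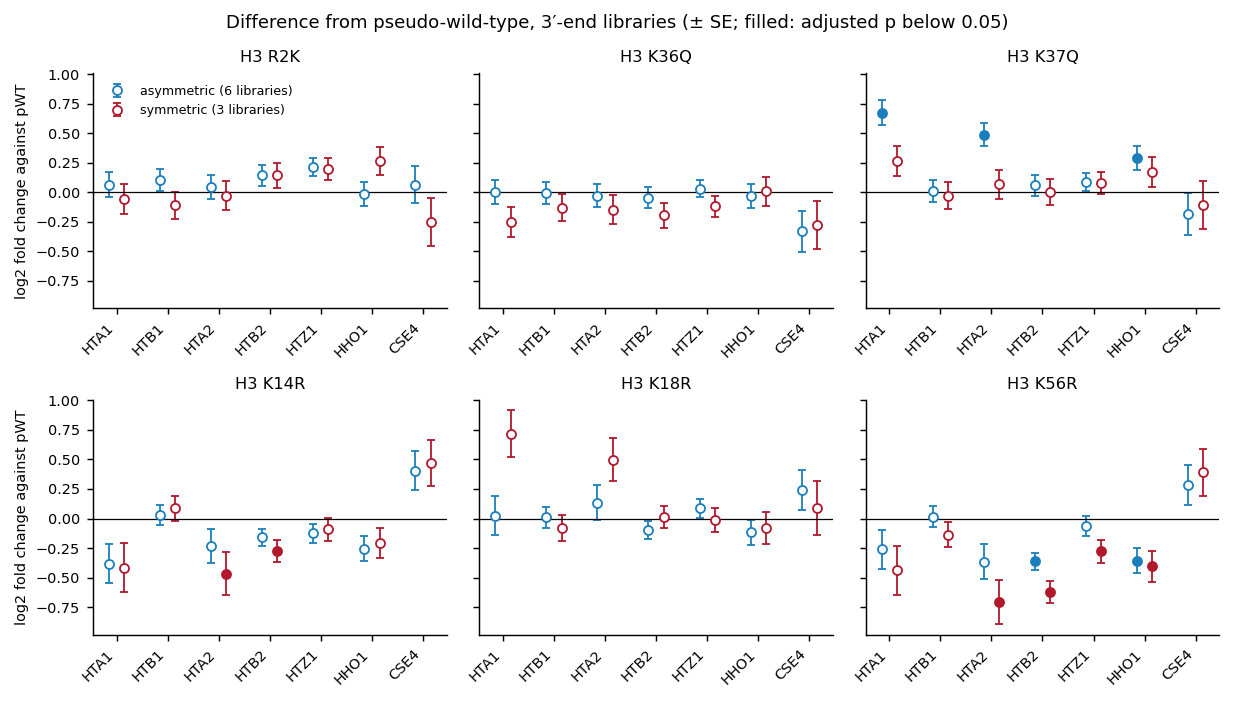
Difference from the pseudo-wild-type of the same batch on the log2 scale with its standard error, for 7 genes and 6 mutants, blue for the asymmetric strains (6 libraries) and red for the symmetric (3 libraries), filled where the adjusted p is below 0.05. HTB2 in symmetric K56R lies at -0.62 and HTA1 in asymmetric K37Q at 0.67, and no HTB1 point is filled.

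H2A.Z, linker and centromeric histone mRNAs differed less. HTZ1 had 107, 108 and 125 CPM as lowest, median and highest of the batch 11 controls and 86.0, 98 and 93.7 in symmetric K56R, below all controls. The difference was -0.28 ± 0.10 on the log2 scale (edgeR adjusted p = 0.0434), with neighbours at -0.11. It was lost when any of 7 single libraries was left out (symmetric replicates 3, 4 and 5 and control replicates 14, 15, 17 and 18), when symmetric replicates 3 and 4 were summed (0.0829), and with the slopes in the fit (0.0855).

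HHO1 was called in K56R in both forms. The controls had 88.4, 126 and 145 CPM as lowest, median and highest, and symmetric K56R had 80.7, 103 and 84.9, with an overlap of 1 library. The difference was -0.40 ± 0.13 on the log2 scale (edgeR adjusted p = 0.0249). Asymmetric K56R had 96.7, 99.5 and 89.3 CPM in H3X and 89.5, 75.9 and 104 in H3Y (-0.36 ± 0.10, edgeR adjusted p = 0.0155). The symmetric call was lost without symmetric replicate 3 (adjusted p = 0.107) or 5 (0.0893) or control 15 (0.0515), the asymmetric one without H3Y replicate 4 (0.0504), and both with the slopes (0.286 and 0.473). In asymmetric K37Q, HHO1 had 162, 107 and 130 CPM in H3X and 108, 119 and 103 in H3Y against 83.0, 95.7 and 116 in the controls (0.29 ± 0.10, edgeR adjusted p = 0.0264). Leaving out any of 5 single libraries (H3X 3 or 5, H3Y 4, controls 8 or 12) ended this call, and with the slopes its adjusted p was 0.678.

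CSE4, the rarest of the 7, had 7.35, 11.4 and 16.8 CPM in the batch 11 controls and was called in no 3′-end comparison with all libraries in the fit. Its nearest values were in K14R, with 0.47 ± 0.19 in the symmetric strain (edgeR adjusted p = 0.0582) and 0.40 ± 0.17 in the asymmetric ones (0.0640, background 29.2% called), where libraries overlapped the controls. Some single leave-outs gave a call. In symmetric K14R these were K14R symmetric replicate 3 (edgeR adjusted p = 0.0364), K18R H3X replicate 3 (0.0429) and controls 16 (0.0433) and 17 (0.0230). For asymmetric K14R they were K14R H3X replicate 4 (0.0456), K18R H3X replicate 3 (0.0478) and controls 16 (0.0450) and 17 (0.0289). Its lowest count was 3 reads, in K37Q H3X replicate 3, with an exact Poisson interval of 0.619 to 8.77 that covers counting error only.

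The balance between the gene pairs was taken within each library, where a change of scale cancels. The log2 ratio of HTA1 plus HTB1 to HTA2 plus HTB2 was 1.55 ± 0.18 in the batch 11 controls (SD, n = 6; 1.39 to 1.81). It was 1.95, 1.80 and 2.01 in symmetric K56R and 1.79, 1.79 and 1.72 in symmetric K14R. The 2 highest of the 33 libraries of the batch were K56R symmetric replicates 5 and 3, while replicate 4 lay within the control range. The symmetric K14R libraries also lay within that range. Asymmetric K56R had 1.91, 1.53 and 1.87 in H3X and 1.70, 1.92 and 1.71 in H3Y, partly above the controls and partly within their range. In the full-length libraries, which came from other batches, symmetric K56R had 1.41 and 1.62, the 2 highest of 98 libraries, above a median of 0.91 and a pseudo-wild-type range of 0.66 to 1.19. K56R H3X had 1.23 and 1.14 there and H3Y had 0.91 and 1.23. Symmetric replicate 1 had 191 CPM of HTB2 and 107 of HTA2, below the pseudo-wild-type library of its batch (282 and 132). Its HTA1 (445) and HTB1 (349) lay above that library (329 and 327). Replicate 2, whose batch holds no control, had 347 CPM of HTB2, 144 of HTA2, 700 of HTA1 and 809 of HTB1. Its HTB2 was above all 5 controls (176 to 282), so its ratio does not show a fall of HTB2. The fitted HTB2 difference was -0.31 (log2) and was not called. The ratio of H2A to H2B reads was highest, on the log2 scale, in K18R symmetric replicate 5 (2.32) and K37Q H3X replicate 3 (1.90), both with steep length slopes.

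**Figure D4:**
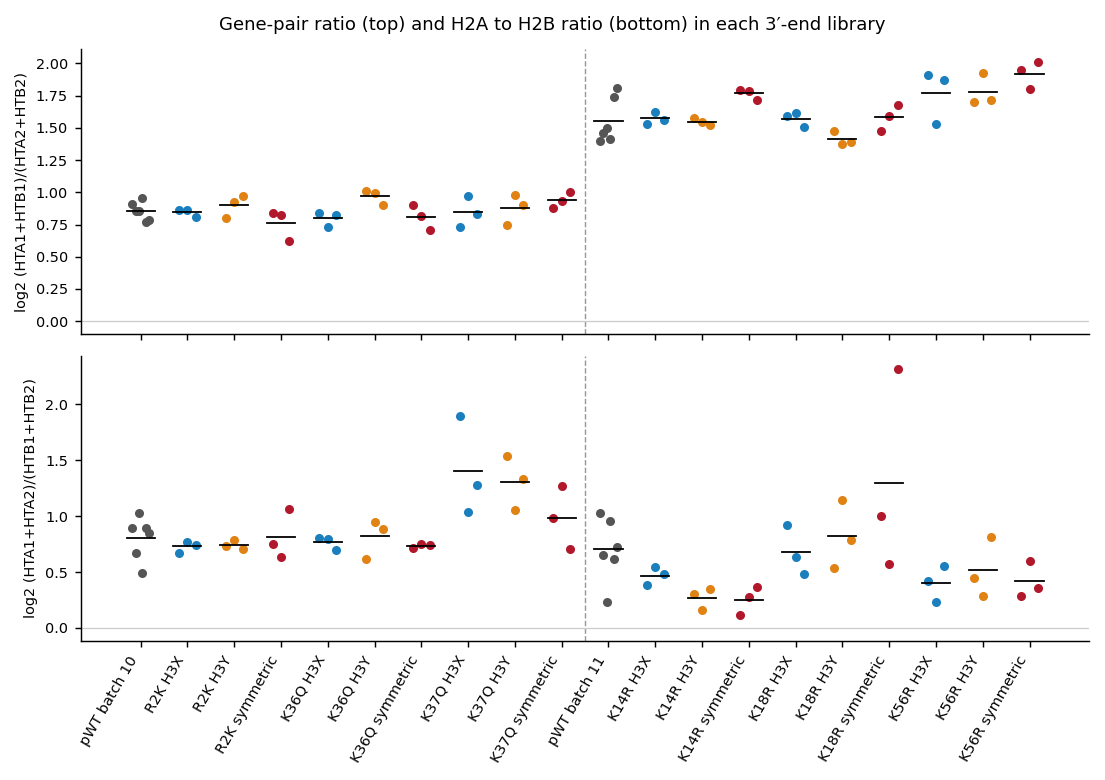
Log2 ratio of HTA1 plus HTB1 to HTA2 plus HTB2 (top) and of H2A to H2B genes (bottom) in each 3′-end library by group. In the top panel symmetric K56R reaches 2.01, and the batch 11 controls lie at 1.39 to 1.81.

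Asymmetric strains were compared with symmetric ones, and H3X with H3Y, to ask whether the number or the identity of the changed H3 copies matters. No member was called in either 3′-end comparison by edgeR. For symmetric against asymmetric, 0 of 42 tests passed (background 0.372%), 6 had an unadjusted p below 0.05, and DESeq2 called 3. For H3X against H3Y, 0 of 42 passed (background 0.570%), and 0 had an unadjusted p below 0.05. These misses do not show that the forms were alike.

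In the full-length libraries the calls lay in K14R. Symmetric replicate 1 had 507 CPM of HTA1, 423 of HTB1, 322 of HTB2, 47.2 of HTZ1 and 98.8 of HHO1. Replicate 2 had 1165, 1314, 1043, 198 and 426 CPM of the same genes. The pseudo-wild-type library of the batch of replicate 1 had 331, 325, 278, 38.1 and 75.2 CPM. Replicate 1 lay a little above that library for each gene, and replicate 2, whose batch holds no control, lay far above both. Against the pseudo-wild-type, 5 of 91 member tests over 13 symmetric mutants were called, all higher and all in K14R, against 2.69% of all gene tests in either direction and 1.78% higher (22.1% in either direction in K14R).

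The K14R differences on the log2 scale were 0.93 ± 0.34 for HTA1 (edgeR adjusted p = 0.0447), 1.06 ± 0.29 for HTB1 (0.0126) and 1.05 ± 0.30 for HTB2 (0.0141). They were 1.20 ± 0.28 for HTZ1 (edgeR adjusted p = 0.00502) and 1.28 ± 0.32 for HHO1 (0.00684). Against the asymmetric strains, HTB2 (0.87 ± 0.28, edgeR adjusted p = 0.0372), HTZ1 (1.13 ± 0.25, 0.0102) and HHO1 (0.94 ± 0.29, 0.0314) were called, 3 of 91 tests, all higher, against 1.20% of all gene tests in either direction and 0.988% higher (12.9% in either direction in K14R). Without symmetric replicate 2 none of these 5 genes was called, with differences from the pseudo-wild-type of 0.17 to 0.49 and edgeR adjusted p values of 0.998. With control replicates 2 and 3, near copies of replicate 1, left out, HTZ1 alone kept its call against the pseudo-wild-type. The HTA1 call against the pseudo-wild-type was lost when any single control library was left out (edgeR adjusted p = 0.0509 to 0.117), and the HTB2 call against the asymmetric strains without control replicate 2 (0.0523) or 3 (0.0541).

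**Figure D5:**
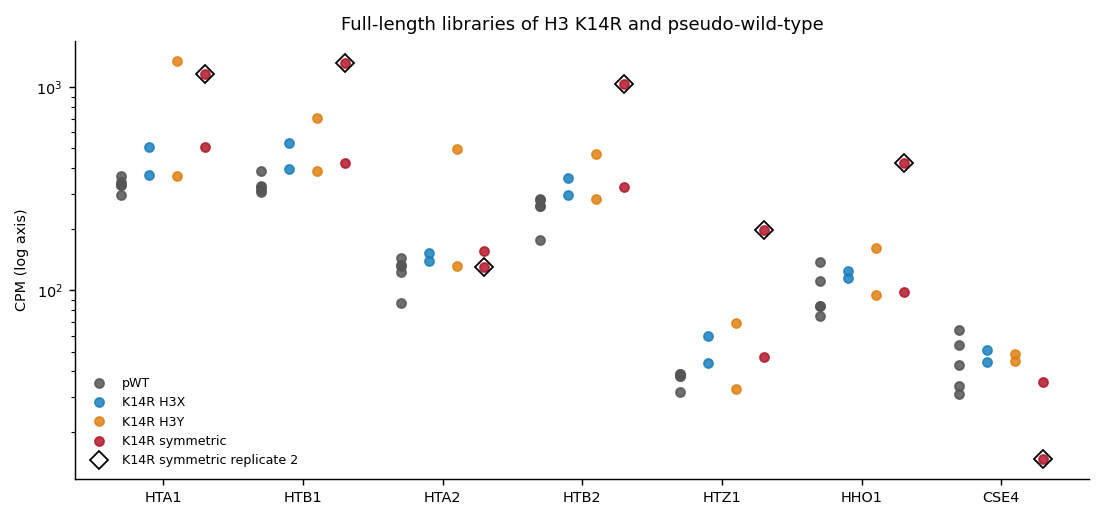
CPM on a log axis of the 7 genes in the full-length K14R and pseudo-wild-type libraries, with K14R symmetric replicate 2 as a diamond. The diamond is the highest point for HTB1, HTB2, HTZ1 and HHO1, at 1314, 1043, 198 and 426 CPM, and the lowest for CSE4 at 14.8.

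Replicate 2 of K14R had low CSE4 (14.8 CPM) beside high HHO1. It was 1 of the 5 full-length libraries in which expression fell most with the A content of the coding sequence. Of the other 4, K18Q H3X replicate 1 had 1.43 CPM of CSE4 and 397 of HHO1, and S10A symmetric replicate 2 had 12.2 and 232. K36Q symmetric replicate 2 had 19.8 and 207, and K37Q H3X replicate 1 had 11.4 and 144. The slopes of these 5 libraries, in the order given, were -18.0, -21.1, -13.0, -10.5 and -14.2 in log2 CPM per unit of A fraction. The 5 are set apart by this slope and not by CSE4 and HHO1 alone. K14R H3Y replicate 2, outside the 5, had 163 CPM of HHO1. K37Q symmetric replicate 1 had 14.3 CPM of CSE4 beside 99.5 of HHO1, with a slope of -6.87. Across all 98 libraries that slope had a correlation of 0.81 with CSE4 and of -0.80 with HHO1. With both library slopes in the fit, 0 members were called in full-length K14R.

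The remaining full-length comparisons called no member in edgeR. In symmetric S10A, DESeq2 called HTA1 (1.19, adjusted p = 0.0301), where edgeR gave 1.18 ± 0.32 (adjusted p = 0.0808). For asymmetric strains against the pseudo-wild-type 0 of 126 tests passed in edgeR (background 0.0427%), with 15 at an unadjusted p below 0.05 and 1 called by DESeq2. The nearest was HTB1 in S10A, with 593, 623, 775 and 596 CPM in the asymmetric libraries against 304 to 389 in the pseudo-wild-type, where no library overlapped (0.93 ± 0.24, edgeR adjusted p = 0.0572). HTA1, HTA2 and HTB2 in the same strains also lay above all controls, with differences of 0.87, 0.71 and 0.80 that did not pass (edgeR adjusted p = 0.102, 0.181 and 0.0951). In each of asymmetric K36Q, K36R, K9Q and T45A, 4 of the 7 members did not overlap the controls. K36R, K9Q and T45A had only 1 library per form, so a lack of overlap is easily reached. The share over all genes is not given for these strains or for S10A. The lack of overlap therefore cannot be read as particular to these genes. Length slopes were -0.21 and -0.085 in S10A H3X and -0.27 and -0.22 in H3Y, against -0.092 to 0.31 in the controls. Over the 98 libraries this slope had a correlation of -0.79 with HTA1, -0.70 with HTB1, -0.63 with HTA2 and -0.52 with HTB2. For H3X against H3Y 0 of 147 tests passed in edgeR (background 0.615%), with 8 at an unadjusted p below 0.05 and 2 called by DESeq2, HHO1 and HTZ1 of K18Q. Both rest on K18Q H3X, whose replicate 1 is among the 5 libraries above.

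Genes that act on these histones or their mRNAs were read from lists in the same 3′-end fits. Of 9 tested regulators of histone genes (12 listed), 4 rose and none fell in symmetric K14R, and 4 rose and none fell in symmetric K56R, in comparisons that called 36.3% and 24.0% of all genes in either direction. In K14R they included SWI4 (1.64 ± 0.32 on the log2 scale, edgeR adjusted p = 0.000575), the DNA-binding part of SBF, and SPT21 (0.62 ± 0.17, 0.00608), which works with Spt10. In K56R they included HIR3 (1.14 ± 0.30, edgeR adjusted p = 0.00755), a subunit of the HIR complex, and SPT10 (0.69 ± 0.21, 0.0200). The median of the list was 0.45 in symmetric K14R and 0.51 in symmetric K56R, beside 0.01 and 0.05 for all genes. In asymmetric K37Q, where 40.0% of all genes were called, 5 of the 9 fell and none rose, with a median of -0.49 beside -0.01.

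Of 9 tested genes of H2A.Z deposition (10 listed), 3 rose in symmetric K14R and 2 in symmetric K56R, and none fell, shares near the 36.3% and 24.0% of all genes called there. In asymmetric K37Q 2 fell, and 5 fell and 1 rose with H3X replicate 4 and symmetric replicate 4 left out together. VPS72, a SWR1 subunit that binds H2A.Z, had 1.22 ± 0.20 in K14R (edgeR adjusted p = 0.000178) and 0.83 ± 0.21 in K56R (0.00534). Of 8 tested centromere partners of Cse4 (9 listed), 5 rose in symmetric K14R and 3 in symmetric K56R, and none fell, with SCM3 at 0.81 ± 0.16 (edgeR adjusted p = 0.000563) and 0.61 ± 0.17 (0.00989). Of 5 tested chaperones of H2A and H2B (7 listed), 3 rose and 1 fell in symmetric K14R and 1 rose and 1 fell in symmetric K56R, and of 5 genes of H2B ubiquitination 1 rose in K14R and 0 changed in K56R. The shares of all genes called are those given above for each comparison. NAP1, the chaperone that fell in both, fell by 0.32 ± 0.08 in K14R (edgeR adjusted p = 0.00422) and by 0.29 ± 0.08 in K56R (0.0117). With the library slopes in the fit, 0 genes of these lists were called in symmetric K14R, symmetric K56R or asymmetric K37Q. The part of the slopes in these counts was not tested.

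How the 7 levels went together across libraries was described without a test. The library slopes moved with several of these genes. Over the 3′-end libraries HTA1 and HTA2 had correlations of -0.93 and -0.85 with the length slope. Over the full-length libraries HHO1 and CSE4 had -0.80 and 0.81 with the slope on A content. The part of the slopes in the correlations below was not tested. Over the 66 3′-end libraries, in levels relative to the batch, HTA1 and HTA2 had a correlation of 0.88, HTA2 and HTB2 0.57, HTB1 and HTB2 0.17 and HTA1 and HTB1 -0.09. Over the 98 full-length libraries HTB1 and HTB2 had 0.81, HTA1 and HTA2 0.71, HTA1 and HTB1 0.57, HTZ1 and HHO1 0.81, and HHO1 and CSE4 -0.63. Genes whose pattern was most like each member, among 4163, were chosen by the correlation over 3′-end libraries, and their correlation over full-length libraries follows. For HTA1 they were KSH1 (0.96 and 0.72), TMA19 (0.96 and 0.71) and CUE1 (0.96 and 0.57), and for HTA2 GIS2 (0.95 and 0.71), RPL40B (0.94 and 0.75) and RPS18B (0.93 and 0.68). HTB2 was most like GAS1 (0.80 and 0.52), PMI40 (0.78 and 0.73) and TEF1 (0.76 and 0.49), HTZ1 like PRO2 (0.72 and 0.76), FRS1 (0.71 and 0.53) and PGI1 (0.68 and 0.54), HHO1 like GRH1 (0.79 and 0.79), SSA2 (0.79 and 0.60) and MMF1 (0.78 and 0.76), and CSE4 like SSF1 (0.70 and 0.72), ERJ5 (0.70 and 0.77) and RPT2 (0.69 and 0.76). HTB1 had its nearest genes at 0.58 (YBR242W), 0.57 (DRE2) and 0.56 (DIM1), and these fell to 0.04, -0.05 and 0.12 in the full-length libraries.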

How the data were processed

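The deposited values are counts per feature, 1 file per library. Per the file headers, the authors counted reads with featureCounts 1.4.6-p2 at a minimum mapping quality of 30, on strand, over genes (full-length assay) or transcripts (3′-end assay), and the submitters' processing notes name TopHat2 2.0.12, Bowtie2 and the build sacCer3. No molecular identifiers are named, so intervals cover counting error only. The printed coordinates and sequences are those of the R64 reference genes.

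Tests were run in edgeR 4.0.16 under R 4.3.3 after TMM scaling and filterByExpr, by the quasi-likelihood method, with Benjamini-Hochberg adjustment over all genes of a comparison and a threshold of 0.05. Each 3′-end batch was fitted on its own (4984 and 4961 genes, 23 residual degrees of freedom each), and the 98 full-length libraries together with batch as a term (6376 genes, 35 degrees of freedom). Printed CPM are TMM-scaled, except those of the mating-type genes, which are plain CPM. The self-test on simulated counts recovered 96% of genes changed 2-fold and 70% of those changed 1.5-fold in symmetric K56R (4961 genes), and 48% and 4% in full-length K14R (6376 genes).

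All 7 genes are named, with full values where a test passed, and list genes up to 3 per list by smallest p. The members and lists were chosen with earlier results of these data known. Replicate numbers paired libraries (all 3 correlations of deviations above 0.1) in 2 of 18 strain pairs. In K56R H3X and H3Y they were 0.14 to 0.43, in K36Q H3X and symmetric 0.12 to 0.32. The labels name no pairing. Alternatives were DESeq2 1.42.0, RLE size factors, no filter on low counts, a replicate block, library slopes on coding length and A content as covariates, and libraries left out. The joint leave-outs of K37Q and of K18R libraries, the leave-out of full-length K14R symmetric replicate 2 alone and the list counts under other settings were chosen after seeing the data.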

Additional observations from a re-analysis of the deposited data

Results flagged for a closer look

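In the full-length libraries symmetric and asymmetric K14R differed by a test of the difference itself in 3 genes, with log2 differences of 0.87 for HTB2, 1.13 for HTZ1 and 0.94 for HHO1, and none was called without symmetric replicate 2.

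In 4 cases a gene lay on opposite sides of the pseudo-wild-type in the assays, with no overlap between libraries in either. The share of all genes for which this holds is not given, so the cases cannot be read as particular to these genes. In symmetric K14R 36.3% of all genes were called in the 3′-end and 22.1% in the full-length libraries. The log2 difference of symmetric K14R was -0.42 in the 3′-end and 0.93 in the full-length libraries for HTA1, -0.28 and 1.05 for HTB2, and -0.090 and 1.20 for HTZ1. For HTA1 in symmetric K56R it was -0.44 and 0.38. Without symmetric replicate 2 none of the full-length K14R differences was called. With the library slopes in the fit the full-length K14R difference of HTA1 was -0.035. For HTZ1 in the 3′-end libraries the highest symmetric K14R value was 106.2 CPM and the lowest control value 106.8. The difference between the assays was not tested in any of the 4 cases, and the assays also differ in batch. Dixon's test for an outlying library was run on 14 sets of values of 4 to 10 libraries, and 0 had a library beyond the critical value. A mutant group with 3 libraries or fewer is below that size. K18R symmetric replicate 5 was therefore not examined within its own group.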

How the results depend on the processing

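The count of members called in the 3′-end symmetric strains was 6, and 2 with the library slopes in the fit. In the asymmetric strains it was 5, 2 with the slopes and 8 with the K18R pair of libraries left out. Between symmetric and asymmetric strains it was 0, but 3 by DESeq2 and 2 with the K37Q pair left out. In full-length symmetric strains against the pseudo-wild-type, all in K14R by edgeR, it was 5, 0 with the slopes and 1 with pseudo-wild-type replicates 2 and 3 left out. In full-length symmetric against asymmetric strains, again in K14R, it was 3, 0 with the slopes or with no batch term, and 1 with pseudo-wild-type replicates 2 and 3 left out. DESeq2 called 1 member in full-length asymmetric strains and 2 between H3X and H3Y, where edgeR called 0 in each, and HTA1 in full-length symmetric S10A. Leaving out 1 library at a time gave 3 to 9 calls in 3′-end symmetric strains, 4 to 8 in asymmetric ones, 0 to 2 between symmetric and asymmetric, 0 to 0 between H3X and H3Y, and in full-length K14R 0 to 6 against the pseudo-wild-type and 0 to 6 against the asymmetric strains. The K56R ratio of gene pairs (log2, 1.92) ran from 1.87 to 1.98. The direction changed for HHO1 between full-length symmetric and asymmetric K14R without symmetric replicate 2 (-0.12) or without replicate 2 of every form (-0.11; it was 1.51 without replicate 1 of every form), and for full-length HTA1 in symmetric K14R with the slopes (-0.035). Of 541 recomputed values for 19 called or named results, 463 kept direction and side of the threshold, 75 lost the call and 3 changed direction. The replicate block, pairing libraries by number, gave 1 call between full-length symmetric and asymmetric strains, in K14R, and 0 in both 3′-end comparisons between forms. Leave-outs of full-length mutants other than K14R were not run. Depth limits CSE4 most, with 2 reads in full-length K18Q H3X replicate 1 (exact Poisson interval 0.242 to 7.22). The causes of these changes were not tested.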
